A study of Mus musculus with 12 samples.

Results

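The contractile and YAP-SRF target genes described here are 9 genes chosen by symbol: Ctgf, Cyr61, Thbs1, Ankrd1, Acta2, Tagln, Cnn1, Myl9 and Ogn. They are 9 of the 24108 genes listed in the count table. The choice was made with earlier results of these data known. The shares of all genes given beside the members are therefore a description and no test of the list. A low-count filter kept 13745 genes, and 8 of the 9 were among them. Ankrd1 was the exception, with 0 to 11 counts per library.

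RNA was sequenced from mouse neural progenitor cells (NPCs) of the subventricular zone (SVZ), taken from C57BL/6 brains at postnatal day 9 to 12. The 12 libraries form 4 groups of 3, since NPCs of each genotype, p53-/- or p53+/+, were grown either in co-culture or alone. Co-cultured NPCs spent 48 h on a monolayer of bmvECs, which are purchased primary brain microvascular endothelial cells, and were then lifted off by selective trypsinization. NPCs alone grew on laminin for the same time, so that endothelial contact, the change of substrate and endothelial RNA carried over cannot be told apart by design. All NPCs came from p53LoxP/LoxP mice. The p53-/- cells had received an adenovirus that expresses iCre from the CMV promoter and were used within a few passages, so that they are a freshly recombined culture rather than a clone, and the paper's methods give a CMV-null virus for the controls. There were 3 independent experiments, which carry the numbers 17_9, 25_9 and 1_10, and every experiment gave 1 library to each group. In bulk RNA, fewer cells of a type and less RNA per cell cannot be told apart.

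YAP and its relative TAZ are transcriptional coactivators held in the cytoplasm by the Hippo kinases. In the nucleus they bind TEAD factors, which read a short DNA element. Spread cells on a stiff substrate keep YAP nuclear, and crowded cells exclude it. Serum response factor (SRF) binds the CArG box. Its coactivators, the MRTFs, are released when actin monomers are used up by polymerization, so that a cell with more actin filaments transcribes more actin and actin-binding genes. The pathways share several targets.

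Ctgf (also Ccn2) and Cyr61 (also Ccn1) encode secreted matricellular proteins of the CCN family and are textbook YAP-TEAD targets. Thbs1 encodes thrombospondin 1, a secreted glycoprotein that activates latent TGFβ. Ankrd1 encodes a nuclear ankyrin repeat protein, best known in heart muscle. Acta2 encodes smooth muscle α-actin, Tagln the actin-binding protein transgelin, Cnn1 calponin 1, and Myl9 a regulatory light chain of myosin. Ogn encodes osteoglycin, a small leucine-rich proteoglycan of the extracellular matrix, and differs in kind from the other members.

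Promoter sequences from RefSeq (GRCm38.p6) were at hand for 6 of the 9 genes. The windows of the 4 tested members that hold an element named here are shown, since the results turn on their levels. The windows of Ankrd1, which was not tested, and of Cnn1 are not shown. Each run is the 250 bases before the annotated start, on the strand of the gene. Capitals mark the TEAD element GGAATG on either strand, or a CArG box, which is CC, then 6 bases of A or T, then GG. A CArG box with 1 of its 6 middle bases C or G is also in capitals.
Cyr61 (Ccn1), chr3:145649986-145650235, minus strand: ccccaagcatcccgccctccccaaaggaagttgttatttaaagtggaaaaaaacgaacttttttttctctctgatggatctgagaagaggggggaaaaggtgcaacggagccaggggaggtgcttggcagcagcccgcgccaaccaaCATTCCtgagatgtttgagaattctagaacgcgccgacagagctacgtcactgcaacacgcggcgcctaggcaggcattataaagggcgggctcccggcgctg
Acta2, chr19:34255374-34255623, minus strand: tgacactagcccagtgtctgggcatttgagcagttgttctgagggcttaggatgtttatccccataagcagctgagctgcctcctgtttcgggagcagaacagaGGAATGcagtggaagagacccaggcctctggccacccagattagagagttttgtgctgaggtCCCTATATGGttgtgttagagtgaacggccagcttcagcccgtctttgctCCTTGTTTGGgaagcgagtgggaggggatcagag
Myl9, chr2:156775214-156775463, plus strand: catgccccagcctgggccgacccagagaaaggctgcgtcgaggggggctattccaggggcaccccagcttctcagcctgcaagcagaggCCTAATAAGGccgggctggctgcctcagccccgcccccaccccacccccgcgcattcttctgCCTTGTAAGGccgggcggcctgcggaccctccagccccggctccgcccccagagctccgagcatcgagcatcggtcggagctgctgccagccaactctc
Ogn, chr13:49607765-49608014, plus strand: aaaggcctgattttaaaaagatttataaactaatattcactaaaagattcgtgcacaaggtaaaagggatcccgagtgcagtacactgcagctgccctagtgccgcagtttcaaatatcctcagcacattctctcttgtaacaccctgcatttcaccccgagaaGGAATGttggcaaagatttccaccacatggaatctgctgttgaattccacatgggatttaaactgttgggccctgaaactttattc

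GGAATG on either strand was found in 4 of the 6 windows (Cyr61, Acta2, Ankrd1 and Ogn) and in 12.6% of all 32851 promoter windows of this length. A CArG box stood in 1 of the 6 (Myl9) and in 1.47% of all windows. A CArG box with 1 middle base C or G stood in 2 of the 6 (Acta2 and Myl9) and in 7.24% of all windows. No matches overlapped in the sequences shown, and the window of Cnn1 held none. A match is a run of letters and not a measured site.

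Total counts ranged from 16509710 to 22245224 per library. Trp53, the recombined gene, had 253 to 384 counts in p53-/- co-cultures against 1135 to 1495 in p53+/+ co-cultures, and 242 to 323 in p53-/- NPCs alone against 1285 to 2135 in p53+/+ NPCs alone. Its target Cdkn1a, a cell cycle inhibitor, had 104 to 563 counts in p53-/- libraries against 7053 to 8147 in p53+/+ libraries. The progenitor markers Nes and Sox2 were present in every library, with at least 15319 and 1736 counts. Levels are given as CPM, the count of a gene relative to the scaled total of its library, and values of 3 libraries are given in the order of experiments 17_9, 25_9 and 1_10.

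The secreted YAP targets were very high in 2 of the 6 libraries of NPCs alone, those of experiment 17_9, and far below these in every co-culture. Some co-cultures lay above some of the other alone libraries. Ctgf had 4.11, 3.06 and 2.28 CPM in p53-/- co-cultures, against 487, 7.24 and 2.27 CPM in p53-/- NPCs alone. It had 5.07, 6.14 and 2.21 CPM in p53+/+ co-cultures, against 533, 22.2 and 8.59 CPM in p53+/+ NPCs alone. The co-culture and alone libraries of p53+/+ NPCs did not overlap, whereas in p53-/- NPCs the alone library of experiment 1_10 lay at the level of its co-culture.

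Cyr61 had 27.7, 21.3 and 15.8 CPM in p53-/- co-cultures, against 1455, 30.7 and 13.1 CPM in p53-/- NPCs alone. It had 58.3, 30.5 and 20.0 CPM in p53+/+ co-cultures, against 1513, 46.6 and 29.3 CPM in p53+/+ NPCs alone. The groups overlapped in both genotypes, and experiment 17_9 held 97.1% of the summed CPM of p53-/- NPCs alone and 95.2% of that of p53+/+ NPCs alone. Thbs1 had 18.9, 11.8 and 11.4 CPM in p53-/- co-cultures, against 357, 18.7 and 4.49 CPM in p53-/- NPCs alone. It had 14.1, 13.1 and 11.7 CPM in p53+/+ co-cultures, against 591, 56.9 and 20.8 CPM in p53+/+ NPCs alone. Thbs1 did not overlap between cultures in p53+/+ NPCs but did so in p53-/- NPCs.

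Ankrd1, the remaining YAP target, stayed near the limit of detection. It had 6, 0 and 2 counts in p53-/- co-cultures against 11, 0 and 0 in p53-/- NPCs alone, and 5, 2 and 1 counts in p53+/+ co-cultures against 5, 0 and 0 in p53+/+ NPCs alone. A count of 0 allows up to 3 counts, so that no difference between the cultures or genotypes was detectable at this depth. The libraries of experiment 17_9 had 5 to 11 counts, and those of the other experiments 0 to 2. In a fit with no filter, over 18810 genes, Ankrd1 was not called in any of 5 comparisons, with adjusted p from 0.769 to 1.

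**Figure D1:**
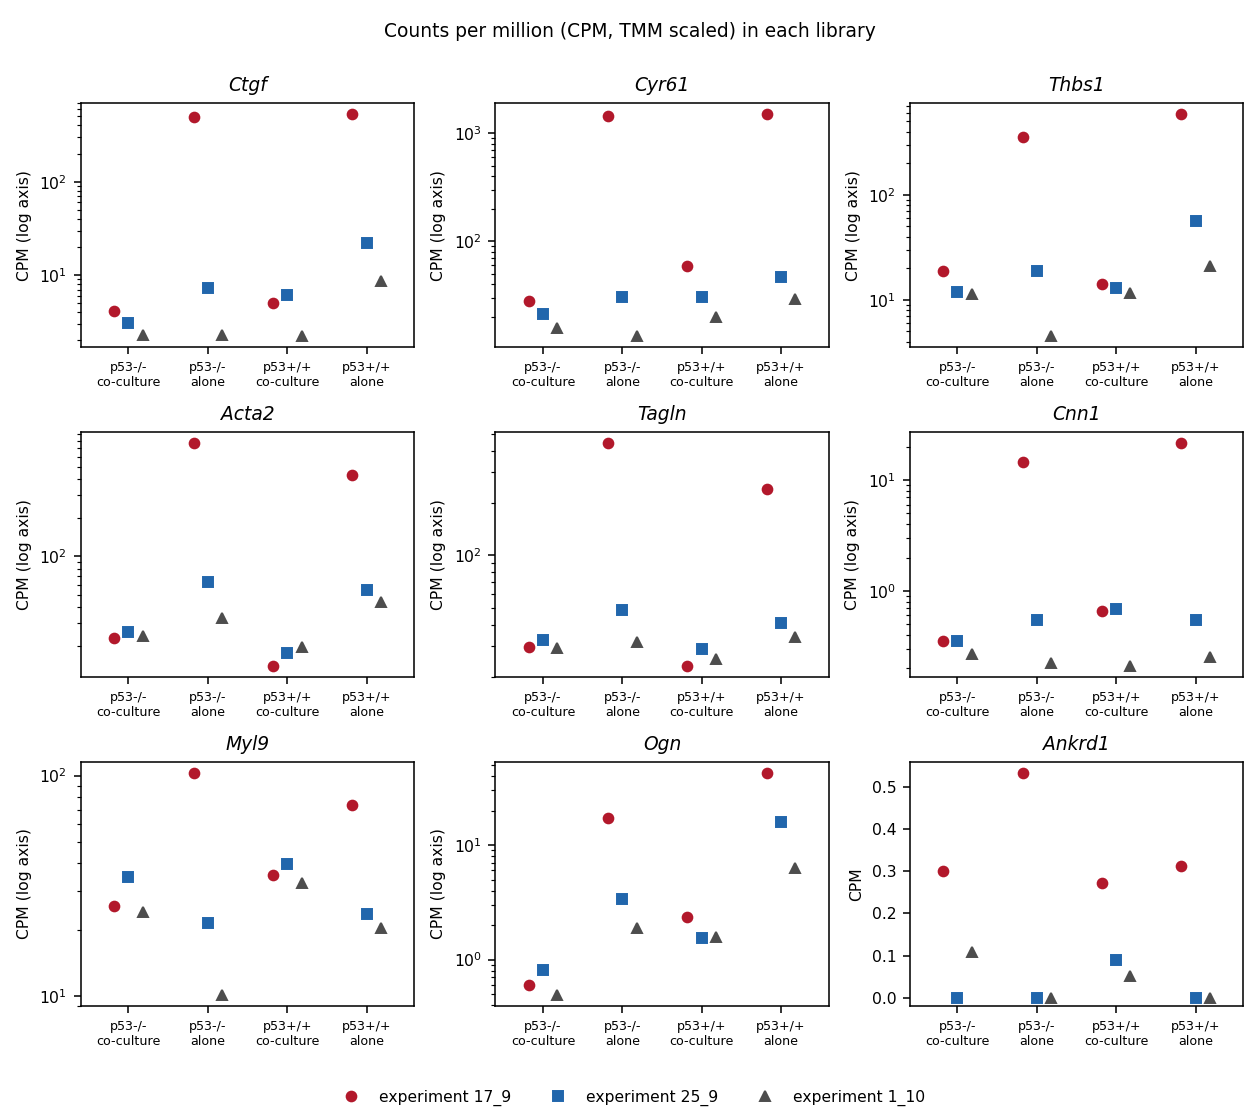
Level of each of the 9 genes in every library, as CPM on a log axis (linear for Ankrd1), by group on the x axis, with a symbol for each experiment. The red circles of experiment 17_9 stand far above the others in the alone groups, as for Ctgf at 487 and 533 CPM. They lie nearer to the others in the co-culture groups. There they are the highest in both genotypes for Cyr61, Thbs1 and Ankrd1, and the lowest in both for Acta2.

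The contractile genes had the same 2 high libraries, and the co-culture levels of Acta2 and Tagln differed little between experiments. Acta2 had 23.0, 25.9 and 24.1 CPM in p53-/- co-cultures, against 765, 63.6 and 33.1 CPM in p53-/- NPCs alone. It had 14.0, 17.6 and 19.6 CPM in p53+/+ co-cultures, against 431, 55.0 and 44.4 CPM in p53+/+ NPCs alone. Acta2 did not overlap between cultures in either genotype, and was lower in co-culture in 6 of 6 within-experiment pairs.

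Tagln had 29.8, 32.7 and 29.3 CPM in p53-/- co-cultures, against 440, 48.7 and 31.8 CPM in p53-/- NPCs alone. It had 23.1, 29.1 and 25.4 CPM in p53+/+ co-cultures, against 239.7, 40.7 and 33.8 CPM in p53+/+ NPCs alone. Outside experiment 17_9, each Tagln pair differed by a factor of 1.09 to 1.49, lower in co-culture in 4 of 4 pairs. Cnn1 was detected well in the alone libraries of 17_9 only. It had 7, 7 and 5 counts in p53-/- co-cultures against 302, 12 and 4 in p53-/- NPCs alone, and 12, 15 and 4 counts in p53+/+ co-cultures against 344, 11 and 5 in p53+/+ NPCs alone. In the 8 libraries of experiments 25_9 and 1_10, Cnn1 thus had 4 to 15 counts in either culture.

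Myl9 changed sides between experiments. It had 25.6, 34.8 and 24.0 CPM in p53-/- co-cultures, against 103, 21.4 and 10.1 CPM in p53-/- NPCs alone. It had 35.3, 39.6 and 32.6 CPM in p53+/+ co-cultures, against 73.8, 23.6 and 20.4 CPM in p53+/+ NPCs alone. Myl9 was lower in co-culture in experiment 17_9 in both genotypes, and higher in co-culture in the other 4 pairs, by 1.59-fold to 2.37-fold. Every co-culture library of experiments 25_9 and 1_10 exceeded every alone library of those experiments.

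Ogn was lower in every co-culture library than in every alone library of its genotype. It had 0.601, 0.803 and 0.488 CPM in p53-/- co-cultures, against 17.1, 3.37 and 1.89 CPM in p53-/- NPCs alone. It had 2.34, 1.55 and 1.58 CPM in p53+/+ co-cultures, against 42.8, 15.8 and 6.25 CPM in p53+/+ NPCs alone. The 6 pairs were lower in co-culture by 3.87-fold to 28.5-fold. The p53-/- co-cultures rested on 9 to 16 counts.

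The spread between experiments was smaller in co-culture than alone. Ctgf averaged 3.15 ± 0.917 CPM in p53-/- co-cultures and 166 ± 279 CPM in p53-/- NPCs alone (SD, n = 3 each). It averaged 4.47 ± 2.03 CPM in p53+/+ co-cultures and 188 ± 299 CPM in p53+/+ NPCs alone (SD, n = 3 each). Acta2 averaged 24.4 ± 1.45 CPM in p53-/- co-cultures and 287 ± 414 CPM in p53-/- NPCs alone (SD, n = 3 each). In NPCs alone the SD exceeded the mean for each of the 8 tested members in each genotype, except Myl9 (39.3 ± 30.0 CPM) and Ogn (21.6 ± 18.9 CPM) in p53+/+ NPCs. In co-culture the SD was below the mean for all 8 in both genotypes, though Cyr61 was still at 36.3 ± 19.8 CPM in p53+/+ co-cultures.

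The comparison of co-culture with culture alone asks what endothelial contact changes in NPCs. Across the 3 experiments, 4 of the 8 tested members were lower in p53-/- co-cultures, and 17% of all tested genes were called lower in that comparison. These were Ctgf (log2 fold change -5.71 ± 1.89, SE; adjusted p = 0.0323), Acta2 (-3.56 ± 1.08, adjusted p = 0.0212), Tagln (-2.50 ± 0.89, adjusted p = 0.0437) and Ogn (-3.55 ± 0.88, adjusted p = 0.00812). Cyr61 (-4.53 ± 1.70, adjusted p = 0.0525), Thbs1 (-3.18 ± 1.34, adjusted p = 0.0806) and Cnn1 (-3.96 ± 1.71, adjusted p = 0.0870) missed the threshold in spite of large folds, and Myl9 was at -0.67 ± 0.66 (adjusted p = 0.451). In p53+/+ NPCs 4 of 8 were lower in co-culture, with 18.3% of all tested genes called lower. They were Ctgf (-5.38 ± 1.84, adjusted p = 0.0339), Thbs1 (-4.10 ± 1.39, adjusted p = 0.0327), Acta2 (-3.37 ± 1.08, adjusted p = 0.0248) and Ogn (-3.56 ± 0.80, adjusted p = 0.00370). Cyr61 (-3.87 ± 1.64, adjusted p = 0.0773), Cnn1 (-3.80 ± 1.61, adjusted p = 0.0765), Tagln (-2.01 ± 0.88, adjusted p = 0.0870) and Myl9 (-0.13 ± 0.65, adjusted p = 0.893) did not pass. No member was called higher in co-culture by edgeR, with 18.8% of all genes called higher in p53-/- NPCs and 21.2% in p53+/+ NPCs, and none was higher at an unadjusted p under 0.05. DESeq2, which gave no adjusted p for Ctgf there, called none higher either. The calls of Ctgf, Thbs1, Acta2 and Tagln were lost without 1 library. Without the alone library of 17_9 of the same genotype, Ctgf stood at -0.62 (adjusted p = 0.767) and Acta2 at -0.996 (adjusted p = 0.320) in p53-/- NPCs, and at -1.78 (adjusted p = 0.372) and -1.54 (adjusted p = 0.199) in p53+/+ NPCs. In the same fits Tagln stood at -0.40 (adjusted p = 0.660) in p53-/- NPCs and Thbs1 at -1.59 (adjusted p = 0.299) in p53+/+ NPCs. These 4 genes also lost their calls without any 1 of the 3 co-culture libraries of the same genotype, where the log2 fold changes stayed between -5.95 and -2.47. Ogn kept its call without any single library in both genotypes.

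The medians over the 8 members were -3.56 in p53-/- NPCs and -3.68 in p53+/+ NPCs, against -0.01 and 0.00 over all tested genes. Within experiments, 3 members were lower in co-culture in every experiment of p53-/- NPCs (Acta2, Tagln and Ogn, with 35.6% of all genes) and 6 in every experiment of p53+/+ NPCs (Ctgf, Cyr61, Thbs1, Acta2, Tagln and Ogn, with 36.6% of all genes). The libraries of the cultures did not overlap, with co-culture lower, for 2 genes in p53-/- NPCs (Acta2 and Ogn, with 21.5% of all genes) and for 5 in p53+/+ NPCs (Ctgf, Thbs1, Acta2, Tagln and Ogn, with 25.7% of all genes). With the experiment as a block, 4 were lower in p53-/- NPCs, with Cnn1 gained (-3.28 ± 1.12, adjusted p = 0.0298) and Tagln lost (-1.59 ± 0.67, adjusted p = 0.0685), and 23.2% of all genes were called lower. In p53+/+ NPCs the block gave 5 lower, with Cnn1 gained (-2.76 ± 1.02, adjusted p = 0.0396), and 24.1% of all genes were called lower.

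The size of the difference depended on the experiment. In a fit with a separate co-culture effect for each experiment, chosen after the counts by library had been seen, the effect differed among experiments for 8 of 8 members, against 1.59% of all genes. The level alone differed among experiments for 8 of 8 members, against 9.25% of all genes. The level in co-culture differed for 0 of 8 at an adjusted p under 0.05, with 0.0509% of all genes called, and Cyr61 was the 1 member with an unadjusted p under 0.05 (0.000610, adjusted p = 0.0835). The libraries alone of experiment 17_9 exceeded the higher of the other 2 experiments by 4.81-fold (Myl9) to 67.3-fold (Ctgf) in p53-/- NPCs, and by 2.70-fold (Ogn) to 39.4-fold (Cnn1) in p53+/+ NPCs. In co-culture the same ratio was 0.737 to 1.59 in p53-/- NPCs and 0.712 to 1.91 in p53+/+ NPCs, over the 8 tested members. Experiment 17_9 was singled out from these values, so that its contrast with the others is given without a test.

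In experiment 17_9 itself 8 of 8 members were lower in co-culture, with 24.7% of all genes called lower. The log2 fold changes over both genotypes ran from -6.85 ± 0.41 for Ctgf, -5.21 ± 0.25 for Cyr61 and -5.00 ± 0.27 for Acta2 to -1.58 ± 0.25 for Myl9. The fold by genotype was close for Ctgf (119-fold in p53-/- and 105-fold in p53+/+ cells) and Acta2 (33.2-fold and 30.8-fold). It was less so for Cyr61 (52.6-fold and 25.9-fold), Thbs1 (18.9-fold and 41.9-fold) and Myl9 (4.02-fold and 2.09-fold), with 1 library on each side of each fold. In experiment 25_9, 5 of 8 were lower, with 15.7% of all genes called lower. These were Ctgf (-1.61 ± 0.37, adjusted p = 0.00595), Thbs1 (-1.46 ± 0.45, adjusted p = 0.0254), Acta2 (-1.47 ± 0.24, adjusted p = 0.000651), Tagln (-0.53 ± 0.19, adjusted p = 0.0441) and Ogn (-2.87 ± 0.30, adjusted p = 2.55e-05). Myl9 was higher (0.72 ± 0.25, adjusted p = 0.0401), with 19.5% of all genes called higher.

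In experiment 1_10, 2 of 8 were lower, with 12.6% of all genes called lower, namely Acta2 (-0.87 ± 0.24, adjusted p = 0.0169) and Ogn (-1.96 ± 0.33, adjusted p = 0.000955). Myl9 was again higher (0.90 ± 0.26, adjusted p = 0.0199), with 16.8% of all genes called higher. Ctgf was at -1.17 ± 0.45 (adjusted p = 0.0700) and was not called. Cyr61 (-0.18 ± 0.23), Thbs1 (0.03 ± 0.48), Tagln (-0.28 ± 0.19) and Cnn1 (0.02 ± 0.59) were not called either. Acta2 and Ogn were therefore the members called lower in each of the 3 experiments. The libraries of both genotypes serve as replicates here, on the ground that the genotype term is shared. Each experiment holds 1 pair per genotype, and the pairs could differ. In 1_10, Thbs1 was at 1.34 in p53-/- and -0.83 in p53+/+ NPCs (log2), and Ctgf at 0.001 and -1.94. Their values above thus average unlike effects. Acta2, Tagln and Ogn were lower, and Myl9 higher, in both genotypes of 1_10.

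**Figure D2:**
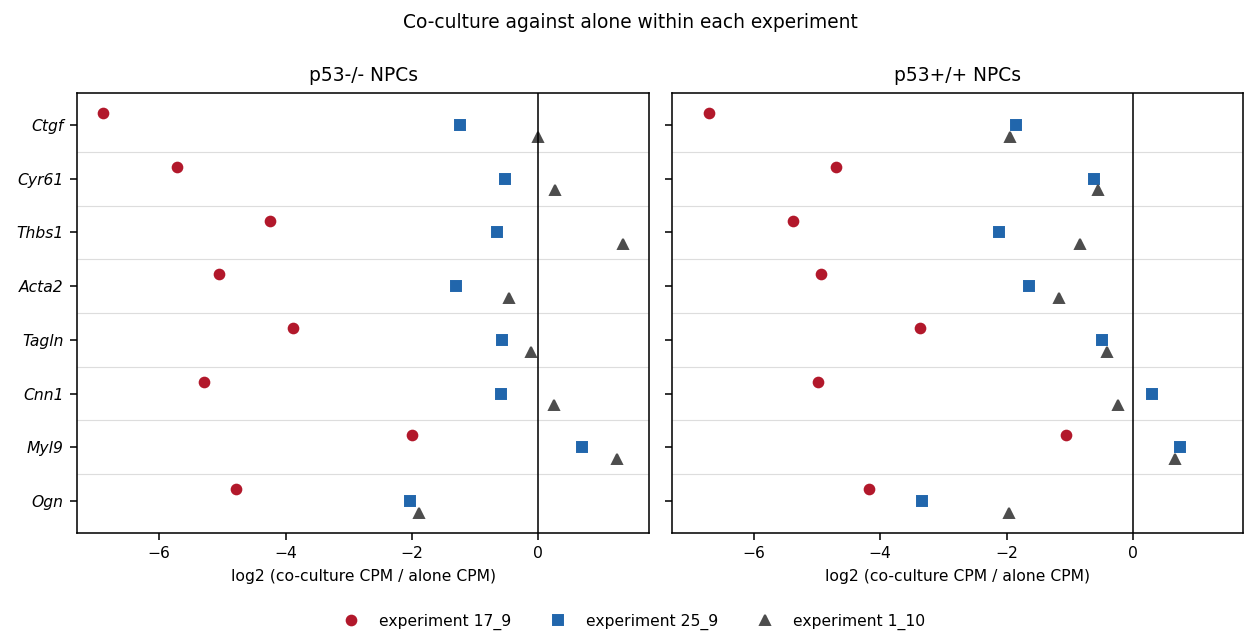
Difference between co-culture and alone within each experiment, as log2 of the ratio of CPM on the x axis (after adding 0.5 to each count), for the 8 tested genes, in p53-/- NPCs on the left and p53+/+ NPCs on the right. Points left of 0 are lower in co-culture, experiment 17_9 lies far to the left of the other experiments for most genes, and Myl9 lies right of 0 in the other 2 experiments.

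Without experiment 17_9, the comparison kept calls for Acta2 and Ogn only. In p53-/- NPCs, Acta2 was at -0.94 ± 0.27 (adjusted p = 0.0403) and Ogn at -2.00 ± 0.57 (adjusted p = 0.0380), and 6.5% of all genes were called lower. In p53+/+ NPCs, Acta2 was at -1.40 ± 0.27 (adjusted p = 0.00549) and Ogn at -2.80 ± 0.47 (adjusted p = 0.00288), and 11.7% of all genes were called lower. Ctgf then stood at -0.83 ± 0.67 in p53-/- NPCs (adjusted p = 0.419) and at -1.85 ± 0.62 in p53+/+ cells (adjusted p = 0.0501).

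With experiment 17_9 left out and the experiment as a block, an alternative added after the data had been seen, 4 members were lower and 1 was higher in p53-/- co-cultures, with 21% of all genes called lower and 23.6% called higher. The member called higher was Myl9, at 0.94 ± 0.16 (adjusted p = 0.000111). In p53+/+ NPCs 6 were lower and 1 was higher, with 24.9% of all genes called lower and 28.6% called higher, and Myl9 was again the member called higher, at 0.72 ± 0.15 (adjusted p = 0.000614). Ctgf was lower in that fit at -0.75 ± 0.25 in p53-/- NPCs (adjusted p = 0.0194) and at -1.87 ± 0.20 in p53+/+ cells (adjusted p = 3.77e-07). Thbs1 was at 0.16 ± 0.31 in p53-/- NPCs (adjusted p = 0.702) and at -1.51 ± 0.28 in p53+/+ cells (adjusted p = 0.000185).

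Whether p53 loss changed these genes was compared in each culture. Counts of experiments with the same sign are given below without a share of all genes, which was not counted for p53 loss. In the co-culture comparison, 35.6% of all genes in p53-/- and 36.6% in p53+/+ NPCs were lower in all 3 experiments. Those shares belong to another comparison and are no base rate for p53 loss. The counts of experiments with the same sign are therefore a description only. In NPCs alone, 0 of 8 members were called by edgeR, with 2.02% of all genes called higher and 4.27% called lower, and none had an unadjusted p under 0.05. In co-culture, 0 of 8 were called, with 3.24% of all genes called higher and 4.93% called lower, and none had an unadjusted p under 0.05. DESeq2 called none of the members for which it gave an adjusted p in either culture. The alone libraries of experiment 17_9 were high in both genotypes. Ctgf alone was at -0.18 ± 1.48, Cyr61 at -0.08 ± 1.45 and Acta2 at 0.70 ± 0.97.

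In 6 of 6 within-experiment pairs, p53-/- NPCs had less Ogn than p53+/+ NPCs. In NPCs alone the pairs differed by 2.50-fold, 4.70-fold and 3.32-fold in experiments 17_9, 25_9 and 1_10, and in co-culture by 3.90-fold, 1.93-fold and 3.24-fold. Without the block it was at -1.52 ± 0.71 alone (adjusted p = 0.212) and at -1.51 ± 0.94 in co-culture (adjusted p = 0.341). With the experiment as a block it was called lower in p53-/- NPCs alone (-1.64 ± 0.38, adjusted p = 0.0136), the 1 member called there, with 9.33% of all genes called lower. In co-culture the blocked value was -1.60 ± 0.60 (adjusted p = 0.0778). Without experiment 17_9 and without the block it was at -2.07 ± 0.45 alone (adjusted p = 0.0475), with 2% of all genes called lower. The Ogn libraries of the 2 genotypes overlapped alone but not in co-culture, where 16.9% of all genes were lower without overlap. No member was free of overlap between the genotypes alone, where 15% of all genes were higher and 12.4% lower without overlap.

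Ctgf, Cyr61 and Thbs1 were lower in p53-/- NPCs alone, against p53+/+ NPCs alone, in 3 of 3 experiments, but by very unequal folds. How many of all genes kept 1 sign in 3 of 3 experiments was not counted for p53 loss. Ctgf differed by 1.09-fold in experiment 17_9, against 3.07-fold in 25_9 and 3.78-fold in 1_10. Thbs1 differed by 1.65-fold, 3.04-fold and 4.64-fold in the same experiments, and Cyr61 by 1.04-fold, 1.52-fold and 2.23-fold. In the blocked fit without experiment 17_9, 5 of 8 members were lower in p53-/- NPCs alone, with 11.1% of all genes called lower: Ctgf (-1.72 ± 0.20, adjusted p = 5.53e-06), Cyr61 (-0.85 ± 0.14, adjusted p = 0.000349), Thbs1 (-1.76 ± 0.28, adjusted p = 0.000195), Myl9 (-0.54 ± 0.16, adjusted p = 0.0247) and Ogn (-2.04 ± 0.24, adjusted p = 4.76e-06). In co-culture 2 of 8 were lower in that fit, with 16.3% of all genes called lower: Cyr61 (-0.44 ± 0.15, adjusted p = 0.0283) and Ogn (-1.29 ± 0.40, adjusted p = 0.0188). These calls rest on 2 experiments that were kept after the values had been seen.

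Acta2 and Tagln ran the other way in co-culture. In 3 of 3 experiments p53-/- co-cultures had more Acta2 than p53+/+ co-cultures, by 1.65-fold, 1.47-fold and 1.23-fold, and Tagln by 1.29-fold, 1.12-fold and 1.15-fold. Their libraries did not overlap between genotypes in co-culture, where 14.4% of all genes were higher without overlap. In NPCs alone their differences changed sides: Acta2 was higher in p53-/- cells by 1.77-fold and 1.16-fold in 17_9 and 25_9 and lower by 1.34-fold in 1_10, and Tagln was higher by 1.84-fold and 1.20-fold and lower by 1.06-fold. Neither was called in co-culture, at 0.51 ± 1.01 for Acta2 (adjusted p = 0.788) and 0.24 ± 0.86 for Tagln (adjusted p = 0.893).

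Of the others in co-culture, Cyr61 was lower in p53-/- cells in 3 of 3 experiments, by 2.11-fold, 1.43-fold and 1.27-fold. Myl9 was also lower there in 3 of 3 experiments, by 1.38-fold, 1.14-fold and 1.36-fold. Ctgf was lower by 1.23-fold and 2.00-fold in 17_9 and 25_9 and equal within 1.03-fold in 1_10. Thbs1 was higher by 1.34-fold in 17_9 and lower by 1.10-fold and 1.03-fold in 25_9 and 1_10. None of these passed the test over all experiments, at -0.75 ± 1.51 for Cyr61 and -0.35 ± 0.66 for Myl9.

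**Figure D3:**
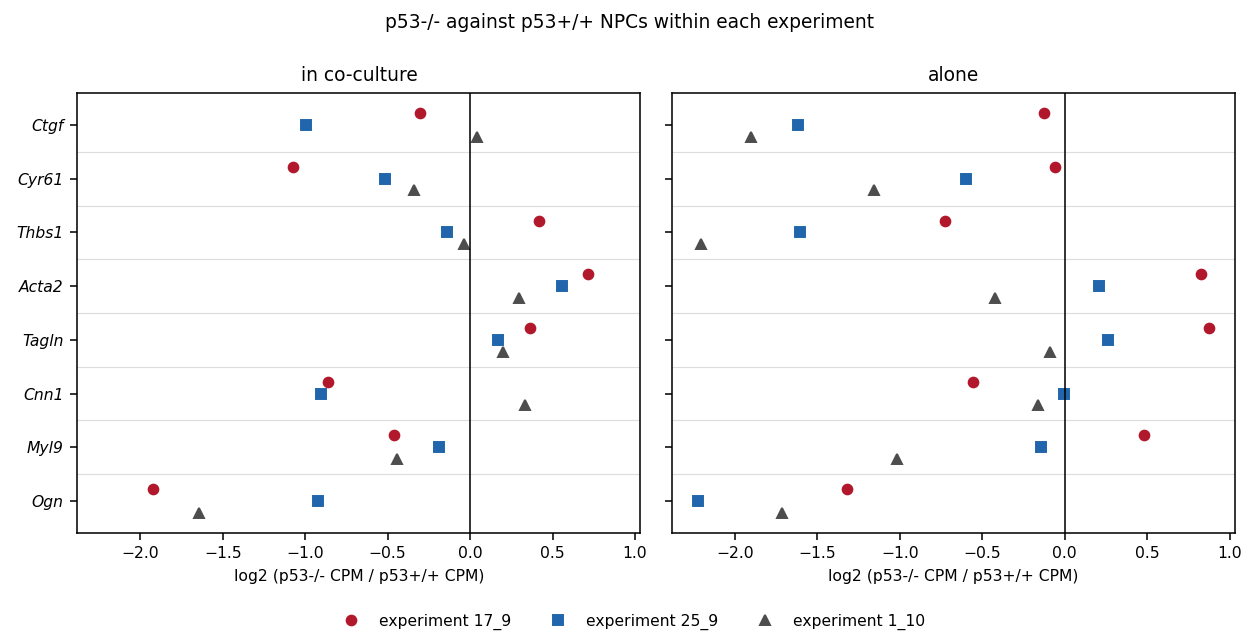
Difference between p53-/- and p53+/+ NPCs within each experiment, as log2 of the ratio of CPM on the x axis (after adding 0.5 to each count), for the 8 tested genes, in co-culture on the left and alone on the right. Ogn lies left of 0 in all 6 pairs, and the alone points of Ctgf, Cyr61 and Thbs1 are close to 0 or left of it in experiment 17_9 and farther left in the other 2 experiments.

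The co-culture effect was not called different between the genotypes for any of the 8 members by edgeR, with 0.0364% of all genes called, and none had an unadjusted p under 0.05. DESeq2 called none of the members for which it gave an adjusted p. The SE of the difference in edgeR was 0.93 (Myl9) to 2.35 (Ctgf) on the log2 scale for 7 members, and the difference for Ogn was 0.01, so that even large differences would not have been detectable here. Without experiment 17_9 and with the block, the difference (p53-/- effect minus p53+/+ effect) was 1.67 ± 0.41 for Thbs1 (adjusted p = 0.0542) and 1.12 ± 0.33 for Ctgf (adjusted p = 0.0978), with 0.768% of all genes called higher.

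The members followed each other closely across the 12 libraries. Correlations of log2 CPM are a description over 12 libraries, 2 of which set most of the variation. Each tested member correlated with the mean of the other 7 at Pearson's r of 0.762 (Myl9) to 0.991 (Ctgf). After subtraction of the group means, the r was 0.957 (Ogn) to 0.993 (Ctgf). The least alike pair by log2 CPM was Myl9 and Ogn (r = 0.479), and the most alike was Cyr61 and Cnn1 (r = 0.985).

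Among all tested genes outside the list, the 6 closest to the mean of the members by log2 CPM were Nuak1 (r = 0.991), Dlc1 (0.981), Lats2 (0.980), Col8a1 (0.978), Actn1 (0.975) and Srf (0.974). By deviations from the group means they were Sytl2 (0.996), Nuak1 (0.992), Scrn1 (0.992), Ier2 (0.991), Klf4 (0.991) and Dlc1 (0.990). Lats2 encodes a Hippo kinase and is itself a YAP target, Srf encodes the CArG-binding factor, Actn1 an actin crosslinker, and Nuak1 a kinase that acts on the myosin phosphatase. Nuak1 had 7.61, 7.93 and 5.04 CPM in p53-/- co-cultures, against 71.4, 9.51 and 5.44 CPM in p53-/- NPCs alone, and 7.03, 7.55 and 5.64 CPM in p53+/+ co-cultures, against 102, 14.1 and 8.59 CPM in p53+/+ NPCs alone. Its 2 high libraries were those of the members.

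Among the factors that act on the members, Srf had the high libraries of the members. It had 30.4, 34.8 and 30.9 CPM in p53-/- co-cultures, against 145, 44.8 and 31.9 CPM in p53-/- NPCs alone. In p53+/+ NPCs it had 27.2, 29.7 and 30.3 CPM in co-culture, against 161, 42.2 and 34.7 CPM alone. The co-culture effect on Srf differed among experiments (adjusted p = 5.27e-05). The same test gave an adjusted p of 0.684 for Yap1, 0.745 for Wwtr1 (which encodes TAZ), 0.577 to 0.908 for Tead1 to Tead4, 0.597 for Mkl1 and 0.0999 for Mkl2, the MRTF genes. The level alone differed among experiments for Srf (adjusted p = 4.72e-07), Mkl2 (0.0179) and Tead3 (0.0405), but not for the others named. Mkl2 was lowest in 17_9, with 31.7, 51.8 and 50.4 CPM in p53-/- and 43.3, 58.7 and 68.8 CPM in p53+/+ NPCs alone. Yap1 ranged over 117 to 158 CPM across the 12 libraries. Myocd, the muscle cofactor of SRF, had 0 or 1 count in each library.

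**Figure D4:**
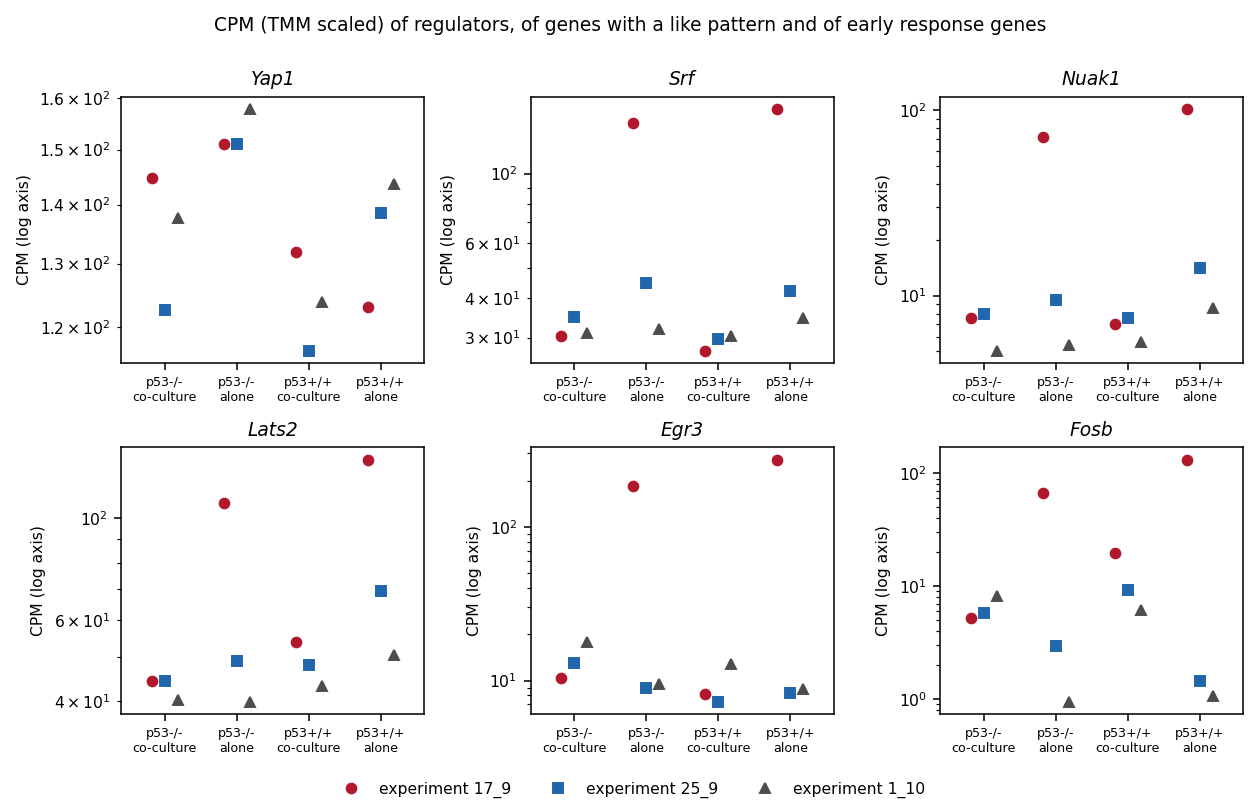
CPM on a log axis in each library for Yap1, Srf, Nuak1, Lats2, Egr3 and Fosb, by group on the x axis, with a symbol for each experiment. In Srf, Nuak1, Lats2, Egr3 and Fosb the alone libraries of experiment 17_9 are the highest, as for Egr3 at 184 and 274 CPM, whereas Yap1 lies between 117 and 158 CPM in all 12 libraries.

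Other targets of these pathways were counted from lists of known genes. Of all tested genes, 18.8% rose and 17% fell in p53-/- co-cultures, and 21.2% rose and 18.3% fell in p53+/+ co-cultures. Of 18 tested YAP-TEAD targets other than the members, 3 rose and 2 fell in p53-/- co-cultures, and 2 rose and 6 fell in p53+/+ co-cultures, with list medians of -0.04 and -0.13. Axl, a receptor tyrosine kinase, rose by 1.06 ± 0.13 in p53-/- and by 1.12 ± 0.13 in p53+/+ cells on the log2 scale (adjusted p = 0.000110 and 5.42e-05). Igfbp3, a secreted binder of insulin-like growth factors, was at -1.03 ± 0.26 and -1.27 ± 0.26 (adjusted p = 0.00790 and 0.00195). The kinase gene Nuak2 fell in both genotypes (-0.77 ± 0.27 and -0.80 ± 0.27, adjusted p = 0.0388 and 0.0305). Gadd45a, a stress-induced gene, rose in p53-/- NPCs (0.72 ± 0.24, adjusted p = 0.0309), and in p53+/+ NPCs Ccdc80 rose (1.16 ± 0.31, adjusted p = 0.0109) and Dock5 fell (-0.94 ± 0.25, adjusted p = 0.00950). The co-culture effect differed among experiments for 5 of these 18 genes, against 1.59% of all genes.

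Of 36 tested SRF-MRTF contractile and cytoskeletal genes other than the members, 4 rose and 15 fell in p53-/- co-cultures, against 18.8% and 17% of all genes. In p53+/+ co-cultures 3 rose and 15 fell, against 21.2% and 18.3% of all genes. The list medians were -0.54 in p53-/- and -0.58 in p53+/+ NPCs. Cnn2, a calponin of non-muscle cells, fell by 1.51 ± 0.48 in p53-/- and by 1.52 ± 0.48 in p53+/+ cells on the log2 scale (adjusted p = 0.0262 and 0.0243). Nexn, an actin filament binder, was at -1.38 ± 0.40 and -1.56 ± 0.41 (adjusted p = 0.0170 and 0.00907). Synpo2, which bundles actin, rose by 2.90 ± 0.34 and 3.20 ± 0.34 (adjusted p = 6.63e-05 and 2.20e-05). Mylk, the kinase of myosin light chains such as that of Myl9, rose by 1.19 ± 0.20 and 0.52 ± 0.19 (adjusted p = 0.000800 and 0.0447). Csrp1, a LIM protein of actin filaments, rose by 0.79 ± 0.25 and 1.19 ± 0.25 (adjusted p = 0.0249 and 0.00255). The effect differed among experiments for 11 of these 36 genes, against 1.59% of all genes.

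Of 19 tested Hippo and YAP regulators, 2 rose and 4 fell in p53-/- co-cultures, against 18.8% and 17% of all genes. In p53+/+ co-cultures 1 rose and 5 fell, against 21.2% and 18.3% of all genes. The effect differed among experiments for 0 of 19, against 1.59% of all genes, and the level alone for 3 of 19, against 9.25%. Tead2 fell by 1.30 ± 0.16 and 1.26 ± 0.16 in p53-/- and p53+/+ cells on the log2 scale (adjusted p = 8.64e-05 and 8.15e-05). Ajuba, an inhibitor of the Hippo kinases, fell by 1.24 ± 0.25 and 1.13 ± 0.25 (adjusted p = 0.00268 and 0.00366), and Wwc1, which activates them, by 1.06 ± 0.25 and 1.10 ± 0.25 (adjusted p = 0.00634 and 0.00437). Vgll4, a competitor of YAP for TEAD, rose by 0.72 ± 0.12 and 0.40 ± 0.12 (adjusted p = 0.000699 and 0.0180), and Tead1 fell in p53+/+ NPCs (-0.51 ± 0.17, adjusted p = 0.0340).

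The families of the secreted members were tested too. The shares of all genes were again 18.8% higher and 17% lower in p53-/-, and 21.2% and 18.3% in p53+/+ co-cultures. The co-culture effect differed among experiments for 1.59% of all genes. Of 5 tested genes of the CCN and thrombospondin families besides the members, 0 were called in either co-culture comparison by edgeR, and the co-culture effect differed among experiments for 0 of 5. Thbs2 was at 0.21 ± 0.24 in p53-/- and at -0.33 ± 0.24 in p53+/+ NPCs. Of 7 tested small leucine-rich proteoglycans besides Ogn, 1 rose in co-culture in both genotypes and 0 fell. It was Bgn, which encodes biglycan, at 2.69 ± 0.39 in p53-/- and 3.50 ± 0.47 in p53+/+ cells (adjusted p = 0.000332 and 0.000117), a gene of low level named because the count was 1. Of 8 tested TGFβ-induced genes, 2 rose and 2 fell in p53-/- co-cultures, and 3 rose and 3 fell in p53+/+ co-cultures. Pmepa1, an inhibitor of TGFβ signalling, fell by 2.20 ± 0.26 in p53-/- and by 2.05 ± 0.27 in p53+/+ cells on the log2 scale, and Skil, which represses SMAD targets, by 0.63 ± 0.16 and 1.06 ± 0.16. The collagen gene Col4a1 rose by 1.90 ± 0.17 and 1.76 ± 0.17, and the fibronectin gene Fn1 was at -0.62 ± 0.41 in p53-/- and fell by 1.34 ± 0.42 in p53+/+ cells.

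Early response genes were a list added after the data had been seen. The co-culture effect and the level alone differed among experiments for 9 of 9, against 1.59% and 9.25% of all genes. The level in co-culture differed for 0 of 9, with 0.0509% of all genes called. Egr3, an early transcription factor, had 10.4, 13.0 and 17.8 CPM in p53-/- co-cultures, against 184, 8.92 and 9.43 CPM in p53-/- NPCs alone, and 8.17, 7.28 and 12.8 CPM in p53+/+ co-cultures, against 274, 8.34 and 8.85 CPM in p53+/+ NPCs alone. For Egr3 the alone libraries of experiment 17_9 were the ones that stood apart.

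Of the usual reference genes, Gapdh (-0.14 ± 0.13 in p53-/- and 0.08 ± 0.13 in p53+/+ cells) and Tbp (-0.35 ± 0.14 and -0.34 ± 0.15) were not called in the co-culture comparison, and Hprt fell by 1.17 ± 0.26 and 1.57 ± 0.27 on the log2 scale (adjusted p = 0.00456 and 0.000689).

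Markers of other cell types were summed in each library. The summed CPM of 14 endothelial markers was 109 to 134 in p53-/- co-cultures against 15.7 to 20.7 in p53-/- NPCs alone, and 120 to 197 in p53+/+ co-cultures against 17.2 to 19.6 in p53+/+ NPCs alone. In each genotype 14 of 14 rose, against 18.8% of all genes in p53-/- and 21.2% in p53+/+ co-cultures. Cdh5, which defines endothelium, had 375 to 683 counts in co-cultures and 0 to 2 counts alone. The members called lower in co-culture were thus low in the libraries with more endothelial RNA, whose part in the result was not tested.

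Smooth muscle and pericytes express Acta2, Tagln, Cnn1 and Myl9. The summed CPM of 10 other mural markers was 157 to 191 in p53-/- co-cultures against 72.7 to 119.6 in p53-/- NPCs alone, and 228 to 235 in p53+/+ co-cultures against 129 to 137 in p53+/+ NPCs alone, with 1 to 4 of the 10 at 0 in each library. In the alone libraries of experiment 17_9 the sum was 72.7 in p53-/- NPCs, the lowest of its group, and 137 in p53+/+ NPCs, the highest of its group. The defining mural genes Rgs5, Kcnj8 and Abcc9 had 2, 2 and 1 counts in the first of these libraries and 3, 1 and 2 in the other.

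For 15 fibroblast and meningeal markers the sum was 71.1 to 125 in p53-/- co-cultures against 50.1 to 102 in p53-/- NPCs alone, and 73.1 to 93.3 in p53+/+ co-cultures against 44.6 to 68.3 in p53+/+ NPCs alone. Within NPCs alone, experiment 17_9 had the highest sum in each genotype, at 102 in p53-/- and 68.3 in p53+/+ NPCs, with 1 and 2 of the 15 at 0. The collagen genes Col1a1, Col1a2 and Col3a1 had 121, 30 and 28 counts in the p53-/- library and 29, 7 and 8 in the p53+/+ library. Among the 8 tested markers of this list, the level alone differed among experiments for 5, against 9.25% of all genes. The co-culture effect differed among experiments for 0 of the 8, against 1.59% of all genes. The part of fibroblast, meningeal or mural cells in the levels of the members was not tested.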

How the data were processed

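The authors deposited raw counts per gene symbol for 12 libraries of NPCs. Per their methods and the labels, stranded mRNA libraries were sequenced as paired reads, aligned to mm9 with TopHat2 2.0.11 and counted with HTSeq 0.6.1. Neither source names the strand setting or the annotation version, so that overlapping or antisense genes are uncertain. Libraries of a group came from 3 experiments, and the counts of 12 within-group pairs differed by 13.2 to 62.5 times the counting variance, so that none was a copy.

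Genes were filtered with filterByExpr of edgeR 4.0.16 (R 4.3.3) and scaled by TMM factors of 0.961 to 1.04. The quasi-likelihood F test of edgeR was fitted with 1 coefficient per group to all 12 libraries for 5 comparisons, and p-values were adjusted by Benjamini-Hochberg over the 13745 genes tested, with a threshold of 0.05. Errors are the SE, the log2 fold change divided by the root of F. Depth limits genes with few counts, such as Ankrd1 and Cnn1.

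The experiment numbers pair the samples, as the study's key to its library names states. After subtraction of the group means, the 18 same-numbered pairs had r from 0.138 to 0.590, against -0.565 to 0.228 in 36 other pairs. A fit with the experiment as a block was therefore run too. Tests of differences among experiments come from a fit with genotype and experiment by culture as terms. The members and gene lists were chosen with earlier results of these data known. The genes named are the members, up to 4 called genes per target, family or regulator list with the largest change at a mean log2 CPM of at least 2, the known factors Yap1, Wwtr1, Tead1 to Tead4, Srf, Mkl1, Mkl2 and Myocd, the check genes Trp53, Cdkn1a, Gapdh, Hprt and Tbp, and the 6 genes most like the members by each of 2 measures. Progenitor, endothelial, mural and fibroblast genes come from the marker lists, and Egr3, Fosb, Thbs2 and Bgn were chosen after their values were seen. The counts of 1 regulator list, and the genes named from it by size of change, are not reported here.

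Alternatives were other scalings, DESeq2 1.42.0, other filters, robust estimation, only the groups compared, the block, and fits without each library or experiment. On simulated counts for the co-culture effect in p53+/+ NPCs, over 13745 genes, 72% of genes changed 2-fold and 94% of those changed 4-fold were recovered, with 7 false calls. The simulated counts held no differences between experiments, and the changed genes were picked at random. These rates therefore do not describe the members, whose spread alone was set by 2 libraries. Figures were drawn with matplotlib 3.10.9.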

Additional observations from a re-analysis of the deposited data

Results flagged for a closer look

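The co-culture effect differed among the 3 experiments for each of the 8 tested members, by an edgeR test with 2 degrees of freedom that was chosen after the values by library had been seen. The adjusted p was 0.000140 for Ctgf, 1.32e-05 for Cyr61, 0.005 for Thbs1, 5.27e-05 for Acta2, 3.27e-05 for Tagln, 0.000209 for Cnn1, 0.00353 for Myl9 and 0.0286 for Ogn. For 6 of these genes (Ctgf, Cyr61, Thbs1, Acta2, Tagln and Ogn) the effect in experiment 17_9 was lower than 0 and larger in size than in 25_9 and 1_10. Cnn1 was lower in 17_9 and near 0 in the others, and Myl9 was lower in 17_9 and higher in the others. The effect did not pass the test of a difference between genotypes for any of the 8. No separate test for single outlying libraries was run, since groups of 3 libraries were below the size set for it.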

How the results depend on the processing

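The 4 members called lower in co-culture in each genotype stayed at 3 to 6 under other scalings, other filters, DESeq2 and fits of only the groups compared. Robust estimation left 1 in p53-/- NPCs and 1 in p53+/+ NPCs, which was Ogn in both, while 17.1% and 18.2% of all genes were called lower there. DESeq2 with the replicate block left 2 in p53-/- NPCs, with 20.9% of all genes called lower. DESeq2 gave no adjusted p for Ctgf in the co-culture comparisons. For p53 loss alone, the block and DESeq2 with the block each called 1 member lower (Ogn), and for p53 loss in co-culture a fit of only the groups compared called 1 (Ogn, adjusted p = 0.0216). The block, which pairs the experiments, turned the sign of uncalled values only: Myl9 in p53+/+ co-culture was 0.18 (0.20 with DESeq2), Myl9 for p53 loss alone -0.0053 (-0.0515), Thbs1 for p53 loss in co-culture -0.044 (-0.063), and in the difference between genotypes Acta2 was 0.0082 and Ctgf 0.26 with DESeq2. Scaling moved the median of all genes by at most 0.07 (log2).

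Leaving out a library or an experiment moved most counts. The members called higher ranged over 0 to 1 in p53-/- and 0 to 1 in p53+/+ co-cultures, where the 1 is Myl9 in the blocked fit without 17_9. Those called lower in p53-/- NPCs ranged over 1 (for example without the p53-/- alone library of 17_9, with 12.4% of all genes lower) to 7 (without the p53+/+ alone library of 17_9, with 18.4%). In p53+/+ NPCs they ranged over 0 (without experiment 25_9, with 5.66% of all genes lower) to 7 (without the p53-/- alone library of 17_9, with 19.2%). For p53 loss the 15 fits without the block gave 0 to 1 lower alone and 0 in co-culture, and the 5 and 2 members of the wider ranges, 0 to 5 alone and 0 to 2 in co-culture, come from the blocked fit without 17_9. Log2 fold changes that crossed 0 were those of Thbs1 (-3.75 to 0.26) and Myl9 (-1.19 to 0.94) in p53-/- co-culture, and of Cnn1 (-4.63 to 0.36) and Myl9 (-0.47 to 0.73) in p53+/+ co-culture.

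For p53 loss alone, the fits without the p53-/- or the p53+/+ alone library of experiment 17_9 set the limits, since they leave the high library in 1 genotype: Ctgf -5.27 to 3.43, Cyr61 -4.59 to 3.72, Thbs1 -4.24 to 1.71, Acta2 -1.87 to 2.53, Tagln -1.37 to 2.22, Cnn1 -4.19 to 3.66 and Myl9 -1.31 to 1.03. Thbs1 for p53 loss in co-culture ran from -0.16 to 0.25. The difference between genotypes ran from -3.94 to 4.77 for Ctgf, -4.47 to 3.84 for Cyr61, -1.59 to 4.36 for Thbs1, -2.02 to 2.38 for Acta2, -1.98 to 1.61 for Tagln, -4.33 to 3.53 for Cnn1, -1.38 to 0.96 for Myl9 and -0.95 to 1.51 for Ogn. Ogn kept its call in co-culture in 15 of 15 such fits in p53-/- NPCs and in 14 of 15 in p53+/+ NPCs, the exception being the fit without experiment 25_9 (adjusted p = 0.0516). In a fit that leaves an arm with few libraries, these are assumed to vary like the other groups.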
